A study of Mus musculus with 12 samples.

Results

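Adamtsl1 and 6 related genes of the ADAMTS family, Adamtsl2, Adamtsl4, Adamtsl5, Adamts1, Adamts5 and Adamts10, are described here in the glomerular RNA of control mice and of mice lacking DACH1, a transcriptional regulator, in podocytes. All 7 genes were listed in both arms of the study, among 13475 gene symbols listed in both arms and 16298 listed in either. The genes were taken by symbol, and Adamtsl1 was chosen from its measured values, the difference between knockout and control glomeruli in these same libraries. Differences between knockout and control in these 7 genes are therefore given as a description, and nothing is read from a test of them. RNA was measured in 12 libraries, 3 different mice in each of 4 groups, on a C57BL/6 background. Baseline controls and baseline knockouts were 10 weeks old and untreated. Controls and knockouts of the STZ arm received streptozotocin, a toxin of insulin-producing beta cells, in 5 daily doses of 50 µg per g, and their glomeruli were taken 10 days after STZ; the age at that time is not given in the sources used here. The knockout is labelled podocyte-specific, and neither the Cre driver nor the alleles that the controls carried are given in the sources used here, although the titles of the STZ controls begin with hetN.

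Members of the ADAMTS family are secreted proteins that carry thrombospondin type 1 repeats. The proteases among them, such as Adamts1 and Adamts5, hold a zinc-dependent catalytic domain and cut matrix proteoglycans, whereas the ADAMTS-like proteins lack that domain and several of them, including ADAMTSL2 and ADAMTSL4, bind fibrillin microfibrils. ADAMTS10, a protease of the family that is a poor cutter of proteoglycans, is also linked to fibrillin microfibrils. In the kidney, ADAMTS1 is best known from developmental defects in mice that lack it.

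The division between proteases and ADAMTS-like genes was read from the coding sequences (GRCm38, GENCODE M21), by searching each translated coding transcript for the zinc-binding motif of metalloproteases, in which 3 histidines hold the catalytic zinc. The motif is shown because it separates the members by role; the sequences run 5′ to 3′ along the coding strand, and capitals mark the codons of the 3 histidines.
Adamts1, residues 402 to 413: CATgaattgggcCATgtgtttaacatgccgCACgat
Adamts5, residues 410 to 421: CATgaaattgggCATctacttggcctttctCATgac
Adamts10, residues 392 to 403: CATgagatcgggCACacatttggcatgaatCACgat
No coding transcript of Adamtsl1 (6 transcripts), Adamtsl2 (1), Adamtsl4 (3) or Adamtsl5 (2) held the motif, and in Adamts10 it was in 1 of 3. The longest protein of Adamtsl1 had 1753 residues, more than those of Adamtsl2 (957), Adamtsl4 (1036), Adamtsl5 (485), Adamts1 (968), Adamts5 (930) and Adamts10 (1104).

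Adamtsl1 (ENSMUSG00000066113.16) lies on the plus strand of chromosome 4 from 85514172 to 86428385, a span of 914.2 kb with 33 merged exons and 12.77 kb of exon sequence. Adamtsl2 lies on chromosome 2 (27079379 to 27108981), Adamtsl4 on chromosome 3 (95676201 to 95687917), Adamtsl5 on chromosome 10 (80339110 to 80348412) and Adamts10 on chromosome 17 (33524204 to 33553782). Adamts1 (85793827 to 85803113) and Adamts5 (85856173 to 85901828) are neighbours on the minus strand of chromosome 16, 53.1 kb apart with 0 coding genes between them. The Adamtsl1 span overlaps that of Sh3gl2 on the same strand, with 352 bp of Adamtsl1 exon inside it, and how reads there were assigned is not given in the sources used here. Sh3gl2, which encodes the endocytic protein endophilin A1, had log2 fold changes between knockout and control of 0.24 (SE 0.27, adjusted p = 0.859) at baseline and 0.17 (SE 0.32, adjusted p = 0.973) after STZ in edgeR's quasi-likelihood test.

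The smallest library held 22636456.5 counts at baseline and 66134170 after STZ, and the largest 24925846.5 and 78631380. The STZ arm was thus sequenced more deeply, and sequencing depth, the different gene lists deposited for the 2 arms (13480 and 16293 symbols) and age cannot be told apart from STZ in any comparison across arms. Whether the libraries of the 2 arms were prepared or sequenced together is not given in the sources used here. The alleles of the controls are not given either. A difference between the arms in any of these cannot be told apart from STZ, and this holds for the interaction too. Dach1 itself was lower in every knockout library than in any control library of its arm, at 54.4 ± 6.38 against 152 ± 41.9 CPM (counts scaled to the TMM-adjusted library size; SD, n = 3) at baseline and 62.9 ± 6.2 against 168 ± 19.5 CPM after STZ. All 10 podocyte markers (Nphs1, Synpo and others) were listed, and their summed level was 18600 to 36000 CPM over the libraries. Summed markers of the proximal tubule ran from 1070 to 20800 CPM, the widest range being within the baseline knockouts. Kap alone, 1 of these 10 markers, ran from 89 to 14200 CPM in that group. The mean log2 CPM of the 10 markers was 6.31, 8.89 and 9.49 in the 3 baseline knockouts.

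Adamtsl1, whose product is an extracellular matrix glycoprotein also called punctin, was scarce in control glomeruli and abundant in knockout glomeruli of both arms. In the 3 baseline controls it stood at 5.63, 5.28 and 4.68 CPM, and in the 3 baseline knockouts at 50.2, 48.3 and 56.3 CPM. In the 3 STZ controls it stood at 4.09, 4.23 and 4.92 CPM, and in the 3 STZ knockouts at 116, 120 and 141 CPM. Every knockout library was above every control library, the STZ knockouts were above the baseline knockouts without overlap, and the ranges of the 2 control groups overlapped. The mean in knockouts was 9.93 times that in controls at baseline and 28.5 times that in controls after STZ. On the log2 scale these differences were 3.31 (SE 0.12) and 4.84 (SE 0.15). Over 11 other settings in each arm, described under the processing, they ran from 3.24 to 3.37 and from 4.74 to 4.91. With edgeR 1 of the 7 genes, Adamtsl1, had an adjusted p under 0.05 in each arm, beside 0.23% of all genes tested at baseline and 1.07% after STZ, and DESeq2 also placed Adamtsl2 there after STZ (adjusted p = 0.0416). Since Adamtsl1 was chosen from these contrasts, nothing is read from those counts. In whole glomeruli, fewer cells of a type and less RNA per cell cannot be told apart.

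**Figure D1:**
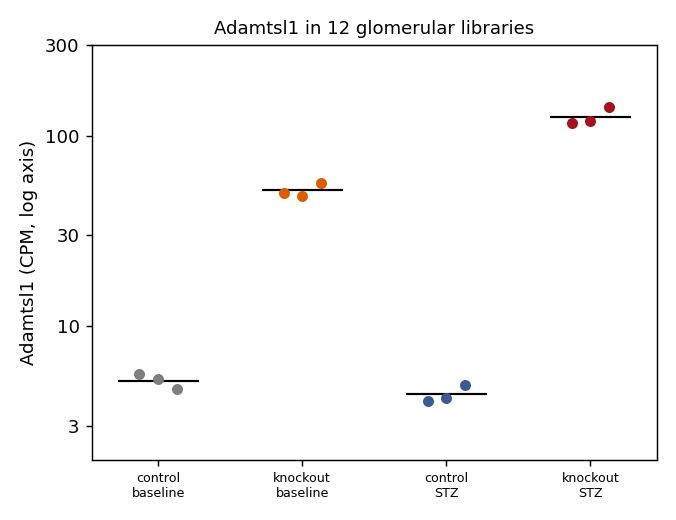
Adamtsl1 in each of the 12 libraries, in CPM on a log axis, with 1 point per library and a line at the mean of each group (n = 3). The control libraries of both arms lie between 4.09 and 5.63 CPM, the baseline knockouts between 48.3 and 56.3 CPM and the STZ knockouts between 116 and 141 CPM.

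Within the knockouts, Adamtsl1 was higher after STZ than at baseline, whereas the controls of the 2 arms overlapped. The mean of the STZ knockouts was 2.43 times that of the baseline knockouts, or 1.26 higher on the log2 scale (SE 0.13), and it passed edgeR's quasi-likelihood test (adjusted p = 0.0323). This was the only one of the 7 genes called there, where 0.178% of all genes were called. The libraries are among those from which Adamtsl1 was chosen, so nothing is read from that call. Leaving out any 1 of the 6 libraries kept the size of the change (1.16 to 1.32) but ended the call, with adjusted p between 0.0655 and 0.191. In controls the STZ mean was 0.849 times the baseline mean, which is -0.27 on the log2 scale (SE 0.16; edgeR adjusted p = 0.538), and 0 of the 7 genes were called, against 0.23% of all genes.

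The difference between the 2 knockout effects, tested as an interaction over all 12 libraries, was 1.52 on the log2 scale (SE 0.17). Adamtsl1 was the only gene of 13475 to pass in that test (edgeR, adjusted p = 0.044), which is 0.00742% of the genes tested, and 494 genes had an unadjusted p under 0.05. The libraries of this test are those of the contrasts from which Adamtsl1 was chosen, so the result is no independent support for them. The call was lost when any 1 of the 12 libraries was left out (1.43 to 1.59, adjusted p 0.0709 to 0.177) and when all libraries were thinned to the smallest total (1.45, adjusted p = 0.127), and it was held with DESeq2 (adjusted p = 5.5e-10), with median-ratio scaling (adjusted p = 0.0425) and with no filter on low counts (adjusted p = 0.044).

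Podocyte markers also stood higher in the STZ arm. Of the 10, 0 were called in any comparison, beside 0.00742% to 1.07% of all genes. Knockout and control did not overlap for 2 markers at baseline (both lower), beside 11.8% of all genes. After STZ 2 were higher and 2 lower without overlap, beside 14.9%. STZ and baseline did not overlap for 3 markers in controls and 5 in knockouts (all higher), beside 19.8% and 21.6%. The summed level of the 10 markers was 20100 to 27500 CPM in baseline controls, 18600 to 22800 CPM in baseline knockouts, 29300 to 36000 CPM in STZ controls and 31000 to 32200 CPM in STZ knockouts. Set against this sum, a ratio chosen after the data were seen, Adamtsl1 was at 2.2, 2.3 and 3.04 CPM per 1000 CPM of podocyte markers in the 3 baseline knockouts and at 3.65, 3.86 and 4.39 in the 3 STZ knockouts. These groups still did not overlap, and the ratio of their means was 1.58 in place of 2.43. In controls the same quantity was 0.205, 0.263 and 0.18 at baseline and 0.125, 0.118 and 0.168 after STZ. Knockouts were 11.6 times controls at baseline and 29 times controls after STZ on this scale.

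The genes whose pattern over the 12 libraries was most like that of Adamtsl1 were found by the root mean square difference of log2 CPM, each gene centred on its mean, among 13470 genes. They were Itga11 (0.518), which encodes the alpha 11 integrin chain that pairs with beta 1 to bind collagen, Efemp1 (0.526), which encodes fibulin 3, Parm1 (0.527), which encodes a mucin-like membrane protein, Arhgap20 (0.538), which encodes a GTPase-activating protein, and Angptl7 (0.623), a secreted angiopoietin-like protein. Itga11 had means of 3.27 CPM in controls and 34.2 CPM in knockouts at baseline, and 3.93 and 80.6 CPM after STZ. Efemp1 stood at 39.6 and 403 CPM at baseline and at 32.8 and 638 CPM after STZ. Parm1 had means of 4.57 and 21.7 CPM at baseline and 3.2 and 111 CPM after STZ. The measure compares patterns and not levels. The other 6 ADAMTS genes differed from Adamtsl1 by 1.85 (Adamtsl2) to 2.28 (Adamts10) on the same measure. The SD of Adamtsl1 itself was 2.18 over the 12 libraries, so any gene that hardly varied would lie near that distance. Nothing is read from the distances of these 6 genes. All these values share the 12 libraries, and they are a description.

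Among the other ADAMTS-like genes, Adamtsl2, whose product binds fibrillin 1 and is known for geleophysic dysplasia when mutated, had higher means in knockouts. It was at 34.1, 44.7 and 28.2 CPM in baseline controls and 80.5, 62.7 and 42.9 CPM in baseline knockouts, and at 21.5, 23 and 20.3 CPM in STZ controls and 29.5, 44.7 and 31.9 CPM in STZ knockouts. The groups overlapped at baseline, where 1 knockout lay below the highest control, and did not overlap after STZ. The log2 differences between knockout and control were 0.80 (SE 0.27) and 0.72 (SE 0.19), similar in size in the 2 arms beside their errors (interaction -0.09, SE 0.34, adjusted p = 0.989). Adamtsl2 was also lower after STZ in both genotypes, by -0.76 (SE 0.18, adjusted p = 0.218) in controls, without overlap, and by -0.84 (SE 0.28, adjusted p = 0.254) in knockouts, with overlap. Neither passed edgeR's test; DESeq2 gave the controls an adjusted p of 0.0223.

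Adamtsl4, which encodes a microfibril-associated protein needed to hold the lens in place, showed no separation of knockout from control in either arm. Its values were 18.0, 16.1 and 12.4 CPM in baseline controls, 12.8, 14.2 and 15.9 CPM in baseline knockouts, 22.3, 21.1 and 8.45 CPM in STZ controls and 21.6, 21.1 and 26.4 CPM in STZ knockouts. The STZ controls were the most uneven group, with 1 library at less than the level of any other of the 12. The log2 differences between knockout and control were -0.12 (SE 0.17) at baseline and 0.42 (SE 0.35) after STZ. All 3 STZ knockouts lay above the baseline knockouts (log2 fold change 0.66, SE 0.14), which did not pass edgeR's test (adjusted p = 0.124) and passed in DESeq2 (adjusted p = 0.00634).

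Adamtsl5, a shorter ADAMTS-like protein, varied least of the 7 genes, from 27.6 to 46.6 CPM over all 12 libraries. It was at 39.1, 45.2 and 38.0 CPM in baseline controls and 38.9, 46.6 and 36.2 CPM in baseline knockouts, and at 35.8, 32.2 and 27.6 CPM in STZ controls and 45.6, 37.6 and 42.2 CPM in STZ knockouts. The baseline groups interleaved (log2 difference -0.01, SE 0.13), and after STZ the knockouts were all above the controls (0.39, SE 0.14). The STZ controls were also all below the baseline controls (-0.39, SE 0.14; edgeR adjusted p = 0.358).

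Adamts1, a protease that cuts the proteoglycans aggrecan and versican, was among the most abundant family genes in glomeruli per length, and it varied widely between libraries of a group. It was at 409, 422 and 320 CPM in baseline controls and 637, 407 and 475 CPM in baseline knockouts, and at 702, 244 and 186 CPM in STZ controls and 347, 464 and 453 CPM in STZ knockouts. The first STZ control held the highest value of all 12 libraries and the third the lowest. The log2 difference between knockout and control was 0.40 (SE 0.20) at baseline and 0.16 (SE 0.49) after STZ, and the latter became 0.97 without the first STZ control. That library also had the highest immune markers, with a mean log2 CPM of 5.24 over 6 genes against 2.01 to 4.18 in the other libraries, and their part in the Adamts1 value was not tested. STZ against baseline gave -0.05 (SE 0.49, adjusted p = 0.978) in controls and -0.29 (SE 0.23, adjusted p = 0.602) in knockouts with edgeR.

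Adamts5, the aggrecanase best known from cartilage, was nearly equal in knockout and control glomeruli at baseline and lower after STZ in both genotypes. It was at 639, 764 and 663 CPM in baseline controls and 661, 686 and 724 CPM in baseline knockouts, and at 336, 437 and 296 CPM in STZ controls and 468, 585 and 392 CPM in STZ knockouts. Both STZ groups lay below the baseline group of their genotype without overlap, and the 2 STZ groups overlapped each other. The log2 difference between knockout and control was 0.00 (SE 0.12) at baseline and 0.44 (SE 0.21) after STZ. STZ against baseline gave -0.98 (SE 0.18, adjusted p = 0.156) in controls and -0.54 (SE 0.17, adjusted p = 0.233) in knockouts in edgeR's test, and DESeq2 gave the controls an adjusted p of 0.00012.

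Markers of mesangial and of glomerular endothelial cells also had lower summed levels after STZ. The mesangial summed level ran from 4550 to 5780 CPM in baseline controls and from 2030 to 2920 CPM in STZ controls, and from 4550 to 4820 CPM in baseline knockouts and 2400 to 3540 CPM in STZ knockouts. In controls 7 of the 8 markers were lower after STZ without overlap, beside 19.8% of all genes without overlap in either direction (median log2 fold change -1.03), and Sfrp2, a secreted Wnt antagonist, passed edgeR's test (-1.83, SE 0.16, adjusted p = 0.0125); in knockouts it was also 7 of 8 (median -0.80), beside 21.6% of all genes, with 0 called. Of the 8 glomerular endothelial markers all had negative log2 fold changes in both genotypes, with medians of -0.46 in controls and -0.55 in knockouts. In each genotype 4 of these 8 were without overlap and 0 were called by edgeR. The share of all genes called was 0.23% in controls and 0.178% in knockouts. The summed level of the endothelial markers ran from 9030 to 9390 CPM in baseline controls, 5260 to 8420 CPM in STZ controls, 7740 to 10400 CPM in baseline knockouts and 4970 to 6330 CPM in STZ knockouts. Set against the mesangial sum, again a ratio chosen after the data were seen, Adamts5 in STZ was 1.02 times baseline in controls and 1.11 times baseline in knockouts. Per 1000 CPM of mesangial markers, Adamts5 was at 145, 142 and 153 CPM in baseline knockouts and 160, 165 and 163 in STZ knockouts. These groups did not overlap. In controls the values were 127, 132 and 146 at baseline and 115, 151 and 146 after STZ, with overlap. The mesangial sum includes Sfrp2, with means of 1200 CPM in baseline controls and 344 CPM in STZ controls. In knockouts its means were 897 CPM at baseline and 333 CPM after STZ. No ratio was taken to a mesangial sum without Sfrp2 or to the endothelial sum. The part of either cell type in the Adamts5 values was not tested.

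Adamts10, a protease whose human gene is mutated in Weill-Marchesani syndrome, was the least abundant of the 3 proteases and uneven in every group. It was at 9.10, 25.6 and 10.8 CPM in baseline controls and 8.32, 19.7 and 19.8 CPM in baseline knockouts, and at 6.72, 13.2 and 17.0 CPM in STZ controls and 5.89, 10.8 and 10.2 CPM in STZ knockouts. All groups of either contrast overlapped. The log2 differences between knockout and control were 0.07 (SE 0.50) and -0.45 (SE 0.38), and those of STZ against baseline -0.34 (SE 0.47, adjusted p = 0.802) in controls and -0.84 (SE 0.38, adjusted p = 0.382) in knockouts by edgeR. A difference of that size was within the spread between mice.

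**Figure D2:**
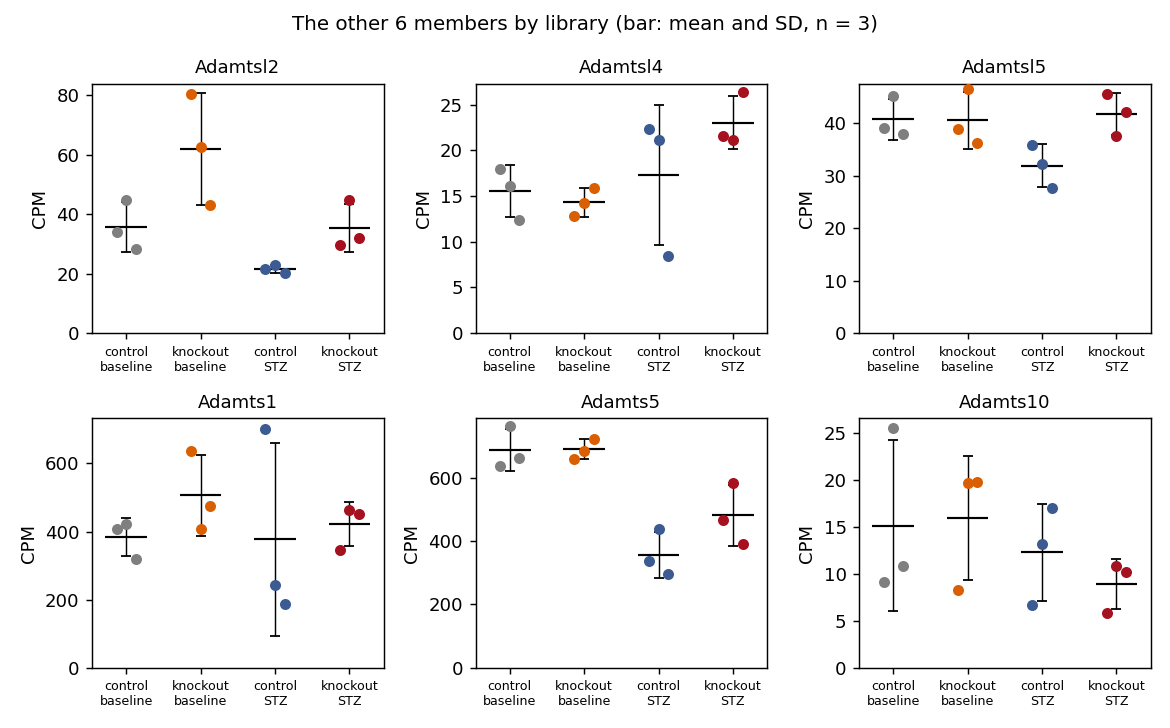
Adamtsl2, Adamtsl4, Adamtsl5, Adamts1, Adamts5 and Adamts10 in each library, in CPM on axes that start at 0, with the mean and SD of each group (n = 3). Adamts5 is lower in both STZ groups (296 to 585 CPM) than at baseline (639 to 764 CPM), and Adamts1 ranges from 186 to 702 CPM within the STZ controls.

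Over the 7 genes, groups of knockout and control did not overlap for 1 gene at baseline and for 3 after STZ, all higher in knockouts, where 11.8% and 14.9% of all genes did not overlap. The median log2 difference of the 7 was 0.07 at baseline and 0.42 after STZ, beside 0.011 and -0.016 over all genes. For STZ against baseline, 3 genes in controls (all lower) and 3 in knockouts (2 higher and 1 lower) had groups that did not overlap, beside 19.8% and 21.6% of all genes. The medians there were -0.34 in controls and -0.29 in knockouts, beside 0.022 and -0.02 over all genes. Apart from Adamtsl1, no interaction of the 7 passed edgeR's test, and the smallest adjusted p was 0.975. The SD of log2 CPM over the 12 libraries was 2.18 for Adamtsl1 and 0.14 within its groups, whereas for Adamts1 (0.53 and 0.56) and Adamts10 (0.66 and 0.68) the spread within groups was as large as that over all libraries.

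**Figure D3:**
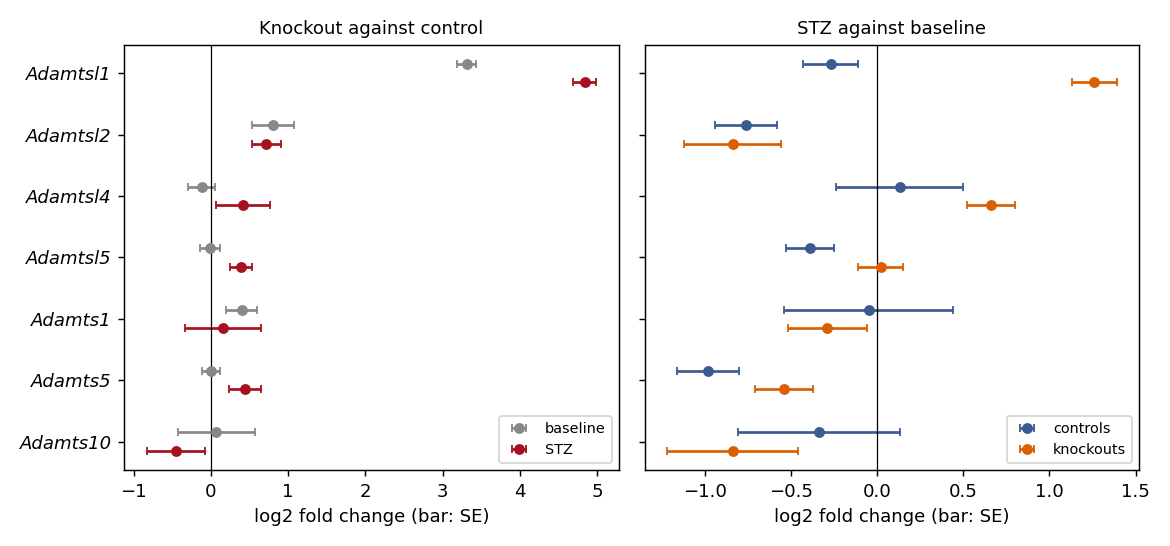
Log2 fold changes of the 7 genes with their standard errors, knockout against control on the left (baseline and STZ) and STZ against baseline on the right (controls and knockouts). Adamtsl1 stands apart at 3.31 and 4.84 on the left and at 1.26 in knockouts on the right, while Adamts5 lies at -0.98 and -0.54 on the right.

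Compared per length, as CPM per kb of merged exons, Adamts1 (72.4) and Adamts5 (63.8) led the 23 family genes listed in both arms in baseline controls, with ranges that overlapped. Adamtsl5 (8.64), Adamts16 (4.76), Adamtsl2 (4.46) and Adamtsl4 (3.70) followed, and Adamts10 (1.84) was in place 10. Adamtsl1 was in place 21 of 23 with 0.407 ± 0.0377 CPM per kb (SD, n = 3), and its range overlapped that of Adamts8 (0.30) below it. In baseline knockouts Adamtsl1 was in place 5 with 4.04 CPM per kb, in STZ controls again in place 21 with 0.346, and in STZ knockouts in place 3 with 9.84 ± 1.08 CPM per kb, beside Adamtsl5 at 8.86 ± 0.845, which was within its spread. The places of Adamts1 and Adamts5 were 1 and 2 in all 4 groups.

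**Figure D4:**
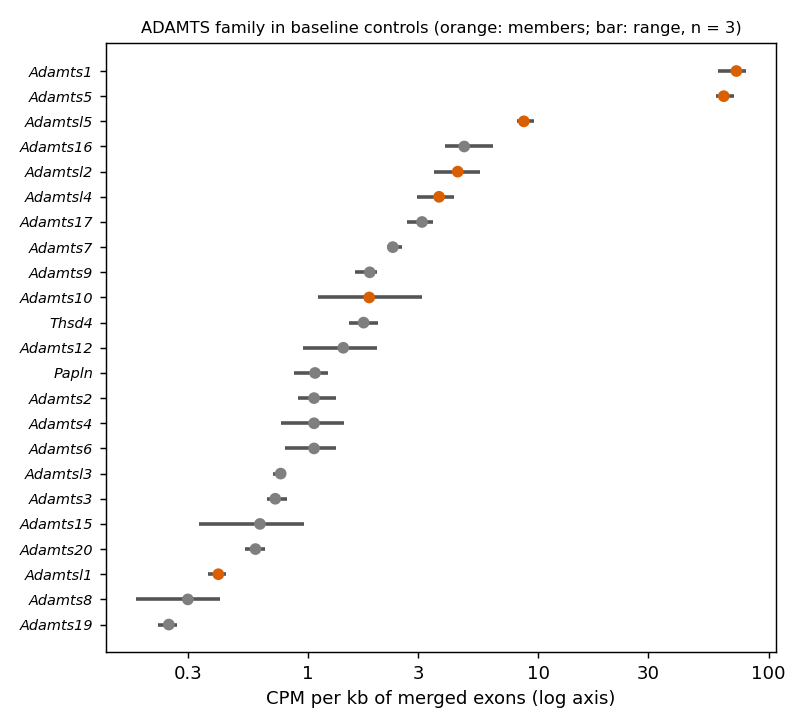
Mean level of 23 ADAMTS family genes in baseline controls, in CPM per kb of merged exons on a log axis, with a bar from the lowest to the highest of 3 libraries; the 7 genes described are in orange. Adamts1 and Adamts5 lead at 72.4 and 63.8, and Adamtsl1 is in place 21 at 0.407.

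Outside the 7 genes, none of the other family members was called by edgeR in any of the 5 comparisons. Between 0.00742% and 1.07% of all genes were called there, so nothing is read from that count. Of 16 further ADAMTS proteases, 13 were listed at baseline (not Adamts13, Adamts14 and Adamts18) and 16 after STZ, and all 3 further ADAMTS-like genes were listed in both arms. Adamts2, a procollagen N-proteinase, had 19.2 ± 3.78 CPM in knockouts against 9.89 ± 2.10 CPM in controls at baseline and 20.8 ± 2.24 against 10.5 ± 2.01 CPM after STZ (SD, n = 3). Its groups did not overlap in either arm, with log2 fold changes of 0.96 (SE 0.21, adjusted p = 0.302) and 0.98 (SE 0.18, adjusted p = 0.0729). In all, 4 of the 16 further family genes listed in both arms were apart in the same direction in both, beside 4.08% of all genes. They were Adamts2, Adamts8, Adamts17 and Papln, of which the last 3 are named after their values were seen.

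Adamts8, a protease of this family, was at 0.823, 1.43 and 1.91 CPM in baseline controls and 2.44, 5.31 and 4.80 CPM in baseline knockouts, and at 1.85, 1.08 and 1.40 CPM in STZ controls and 3.37, 10.7 and 15.4 CPM in STZ knockouts. Its log2 fold changes were 1.59 (SE 0.42, adjusted p = 0.414) and 2.77 (SE 0.56, adjusted p = 0.0957). Adamts17, a protease linked to a Weill-Marchesani-like syndrome, was the one that was lower in knockouts, at 13.8 ± 2.64 against 24.2 ± 3.14 CPM at baseline and 6.18 ± 0.328 against 14.2 ± 4.78 CPM after STZ (SD, n = 3). The log2 fold changes of Adamts17 were -0.81 (SE 0.18, adjusted p = 0.287) and -1.20 (SE 0.24, adjusted p = 0.0927) in edgeR's test. Papln, which encodes papilin, differed by 0.28 (SE 0.16, adjusted p = 0.802) and 0.38 (SE 0.16, adjusted p = 0.561). Of the ADAMTS-like genes, Thsd4, which encodes ADAMTSL6, gave -0.37 (SE 0.15, adjusted p = 0.708) and 0.14 (SE 0.13, adjusted p = 0.878).

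Genes that work with the family were followed through lists of their partners. Of 12 genes of fibrillin microfibrils and elastic fibres, 10 were listed at baseline, with a median log2 difference of -0.06. At baseline 0 were called, beside 0.23% of all genes, and after STZ 2 of 12 were called, both higher in knockouts, beside 1.07%. After STZ 9 of the 12 log2 differences were positive, and the median was 0.32. Groups did not overlap for 4 of the genes (all higher in knockouts, beside 14.9% of all genes). Against baseline, 8 of the 10 genes listed in both arms were lower in STZ controls (median log2 fold change -0.58). Of these 5 were without overlap, beside 19.8% of all genes in either direction. Within knockouts 4 of the 10 were higher and 6 lower after STZ (median -0.05). There 2 were higher and 1 lower without overlap, beside 21.6% of all genes. Mfap2, a small microfibril glycoprotein, was at 7.11 ± 0.964 CPM in STZ knockouts and 3.09 ± 0.333 CPM in STZ controls (SD, n = 3). The difference was 1.21 on the log2 scale (SE 0.18, edgeR adjusted p = 0.0339). At baseline Mfap2 was at 8.48 ± 0.599 CPM in knockouts and 9.19 ± 5.21 CPM in controls. Fbln5, the elastic fibre protein fibulin 5, was at 86.3 ± 23.9 against 35.3 ± 3.24 CPM after STZ (SD, n = 3; 1.29, SE 0.20, adjusted p = 0.0428). At baseline Fbln5 was lower in knockouts without overlap, at 43.0 against 57.4 CPM (-0.42, SE 0.16, adjusted p = 0.694), and its interaction of 1.71 (SE 0.28) did not pass edgeR's test (adjusted p = 0.163).

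Furin-type proprotein convertases remove the propeptides of ADAMTS proteases, and of the 4 in the list all were listed in both arms, 0 were called at baseline and 1 was called after STZ, beside 0.23% and 1.07% of all genes. Pcsk5 was higher in knockouts after STZ, at 142 ± 10.8 against 75.1 ± 5.54 CPM (SD, n = 3), a rise of 0.92 on the log2 scale (SE 0.12; edgeR adjusted p = 0.0236), and at baseline was at 108 ± 8.22 against 75.4 ± 17.7 CPM (0.51, SE 0.18, adjusted p = 0.679). The median of the list was 0.32 at baseline and 0.30 after STZ. Of 7 inhibitor and clearance genes, such as the Timp genes, 5 were listed at baseline and 7 after STZ, 0 were called, and Reck, a membrane-bound metalloprotease inhibitor, gave 0.63 after STZ (SE 0.14, adjusted p = 0.148) and 0.21 at baseline (SE 0.16, adjusted p = 0.805).

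Of 10 genes of hyaluronan and the proteoglycans that bind it, the latter being classical ADAMTS substrates, 3 were listed at baseline and 8 after STZ. Between knockout and control 0 were called, beside 0.23% of all genes at baseline and 1.07% after STZ. Bcan, which encodes the proteoglycan brevican, stood at 2.84 against 4.01 CPM at baseline and 2.93 against 4.22 CPM after STZ (log2 fold change -0.50, adjusted p = 0.787, and -0.52, adjusted p = 0.415, edgeR). Of 6 symbols for enzymes that add sugars to thrombospondin repeats 5 were listed in each arm and 0 were called, and Dpy19l3, a C-mannosyltransferase, gave -0.06 (adjusted p = 0.946) and 0.25 (adjusted p = 0.546). The symbol that was not listed, B3galtl, is an older name of B3glct, which was. Over these lists of partners no gene was called by edgeR in the comparisons of STZ with baseline or in the interaction. Of all genes 0.23% were called for STZ in controls, 0.178% for STZ in knockouts and 0.00742% for the interaction.

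**Figure D5:**
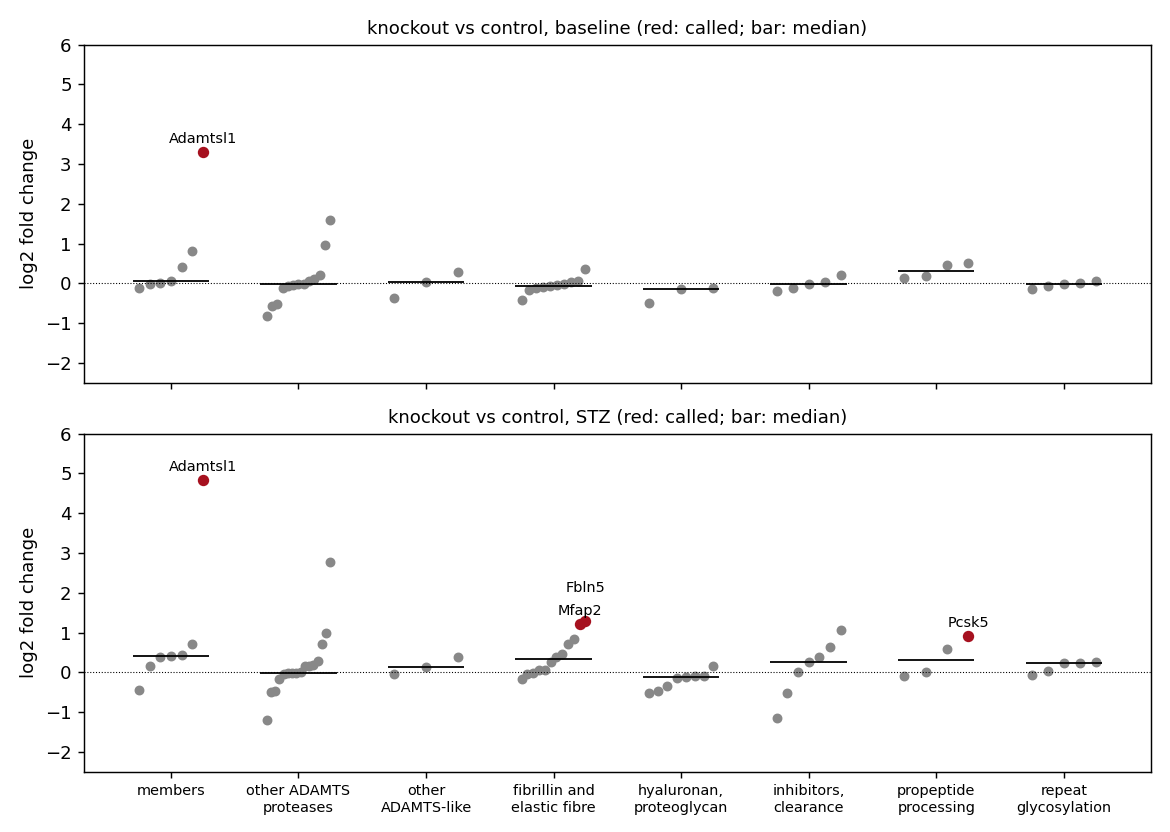
Log2 fold change between knockout and control for the genes of each list, at baseline above and after STZ below, with 1 point per gene, a bar at the median of each list and genes with an adjusted p under 0.05 in red. Adamtsl1 was chosen from these contrasts, and the other genes in red are Mfap2 (1.21), Fbln5 (1.29) and Pcsk5 (0.92), all in the STZ arm.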

How the data were processed

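Estimated counts per gene symbol, 1 table per library, were used as the authors deposited them. Between 10.5% and 11.5% of a library's values ended in 0.5, 18 blank values over all libraries were taken as 0, and counts were rounded for the models. BWA and mm10 are named in the submitters' processing notes. Which counter, annotation and strand setting were used is not given in the sources used here. Within groups, no 2 libraries were duplicates.

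Genes were filtered with filterByExpr, scaled with TMM and tested with edgeR 4.0.16 (limma 3.58.1, R 4.3.3) by its quasi-likelihood test, with Benjamini-Hochberg adjustment over all genes. A gene was called where its adjusted p was below 0.05. Knockouts were compared with controls on the 6 libraries of an arm, and STZ and baseline per genotype, and the interaction over 12 libraries, on genes listed in both arms. The p-values measure the spread between 3 mice per group. Printed CPM come from all 12 libraries scaled together, and log2 values for likeness used a prior count of 2. Exon lengths are from GENCODE M21 (GRCm38, which is mm10). Other settings were DESeq2 1.42.0, median-ratio (RLE) scaling, no filter, each library left out, 1 fit of all 12 libraries, a proximal tubule covariate and thinned counts. The edgeR steps were also run on counts simulated from the same edgeR model. That run cannot decide between edgeR and DESeq2, and nothing is read from it.

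The members and lists were chosen with earlier results of these data known. Fold changes or levels were given for the 7 members, the 5 genes most like Adamtsl1 and genes of the lists. Of each family or partner list these were every called gene, or else the gene of smallest p in a knockout comparison. Of the cell type lists only the called gene, Sfrp2, and Kap, named after its values were seen, were given with values. Nphs1 and Synpo were named as examples. Other genes with fold changes are said to be chosen after their values were seen, apart from Sh3gl2, which overlaps Adamtsl1.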

Additional observations from a re-analysis of the deposited data

Results flagged for a closer look

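For Adamtsl1 the difference between knockout and control was larger after STZ than at baseline. The difference between the log2 fold changes of the 2 arms was 1.52 (SE 0.17; adjusted p = 0.044 in the interaction fitted with edgeR to 12 libraries). Adamtsl1 was higher in all 3 STZ knockouts than in any baseline knockout, and the control groups overlapped. The libraries are those from which the gene was chosen, so the test is no independent support. The call was held in 3 of 16 other settings, and it ended when any 1 library was left out and when counts were thinned to equal totals (1.45, adjusted p = 0.127).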

How the results depend on the processing

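No paired analysis was possible because the replicate numbers follow accession order and the labels pair no mice. The number of genes called depended on the tool and on single libraries. Knockout against control at baseline gave 31 genes, and 222 with DESeq2, 79 with 1 fit of all 12 libraries, 66 with the proximal tubule covariate and 4 to 51 with a library left out. After STZ it gave 175, and 566, 293, 333 and 40 to 109 in the same order. STZ against baseline gave 31 genes in controls, 410 with DESeq2 and 4 to 12 with a library left out, and 24 genes in knockouts, 805 with DESeq2 and 1 to 8 with a library left out. The interaction gave 1 gene, 31 with DESeq2, 2 with median-ratio scaling, 0 with thinned counts and 0 to 2 with a library left out. At baseline DESeq2 called 93 genes higher and 129 lower, and the fit of all 12 libraries 40 and 39, beside 23 and 8. The causes were not tested, and leaving out a library changed both how many samples were used and which ones. Adamtsl1 was called in 4 of 10 other settings for STZ in knockouts and in 3 of 16 for the interaction. In the tested comparisons signs turned with a library left out, for uncalled genes. For STZ in controls these were Adamts1 (-0.87 to 0.29), Adamts10 (-0.63 to 0.27) and Adamtsl4 (-0.11 to 0.46), for STZ in knockouts Adamtsl5 (-0.06 to 0.12), and for the interaction Adamtsl2 (-0.31 to 0.15) and Adamts1 (-0.59 to 0.57). Between knockout and control, Adamtsl4, Adamtsl5, Adamts5 and Adamts10 at baseline and Adamts1 after STZ (-0.18 to 0.97) also crossed 0. The part of depth in differences across arms was tried only by thinning, and 3 mice per group limit every value.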
